A study of Mus musculus with 12 samples.

Results

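The 10 genes described here encode the core of transforming growth factor beta (TGF-beta) signalling outside the nucleus. They are the ligands Tgfb1, Tgfb2 and Tgfb3, the receptors Tgfbr1, Tgfbr2 and Tgfbr3, the latency proteins Ltbp1, Ltbp2 and Ltbp3, and Tgfbi, a matrix protein gene that TGF-beta induces. The rule took the transcript clusters whose platform annotation gives exactly that gene symbol. Each of the 10 genes had a single such cluster, among 21789 clusters with 1 gene symbol and 35556 clusters in the whole table. They were chosen by name, with earlier results of these arrays known, and no record says which measured values led to the choice. Their values are therefore a description, and each p-value below says only where a gene stands among all 21789 clusters.

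The cells were fibro/adipogenic progenitors (FAPs), mesenchymal cells of skeletal muscle that carry the receptor PDGFRα and can give rise to matrix-producing fibroblasts and to adipocytes. They were isolated from hindlimb muscle, without injury, of C57Bl/6 males aged 8 to 12 weeks, and each replicate pooled cells of 2 mice. After 2.5 days of growth, cells received 10 µM of an antisense oligonucleotide (AMO) for 48 hours, and then the AMO again for 48 hours with or without the PDGFRα ligand PDGF-AA. The labels give the PDGF-AA dose as 50 uM. The 6 groups, with 2 arrays each, were the 5'ss AMO with and without PDGF-AA, the pA AMO with and without PDGF-AA, and the control AMO with and without PDGF-AA. The pA AMO is directed at a polyadenylation site within an intron of Pdgfra, and the 5'ss AMO at a splice donor site within an intron of the same gene. All groups were transfected, so no array shows untreated cells, and these are cultured cells and not muscle. In bulk RNA of this kind, fewer cells of a type and less RNA per cell cannot be told apart.

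TGF-beta is secreted bound to its own propeptide, which keeps it inactive. LTBP1 and LTBP3 tie this latent complex to the extracellular matrix, while LTBP2 does not bind it. Once released, the ligand binds the type II receptor, which recruits and phosphorylates the type I receptor, and the type I receptor in turn phosphorylates Smad proteins that move to the nucleus. In muscle, the pathway is known for driving FAPs and fibroblasts towards matrix production, and persistent activity accompanies fibrosis.

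Of the 10 genes, Tgfbi had the widest range across the 6 groups. Its group means spanned 0.83 on the log2 scale, and both 5'ss AMO groups lay above all other groups. Tgfb2 came next with a span of 0.53, and its 2 lowest arrays were replicate 1 with PDGF-AA under the pA and the control AMO. Ltbp2 spanned 0.36, Tgfbr1 0.32, Ltbp1 0.28, Tgfb3 and Ltbp3 0.27 each, and Tgfb1 0.22. The receptor genes Tgfbr2 and Tgfbr3 were nearly flat, with spans of 0.13 and 0.07.

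**Figure D1:**
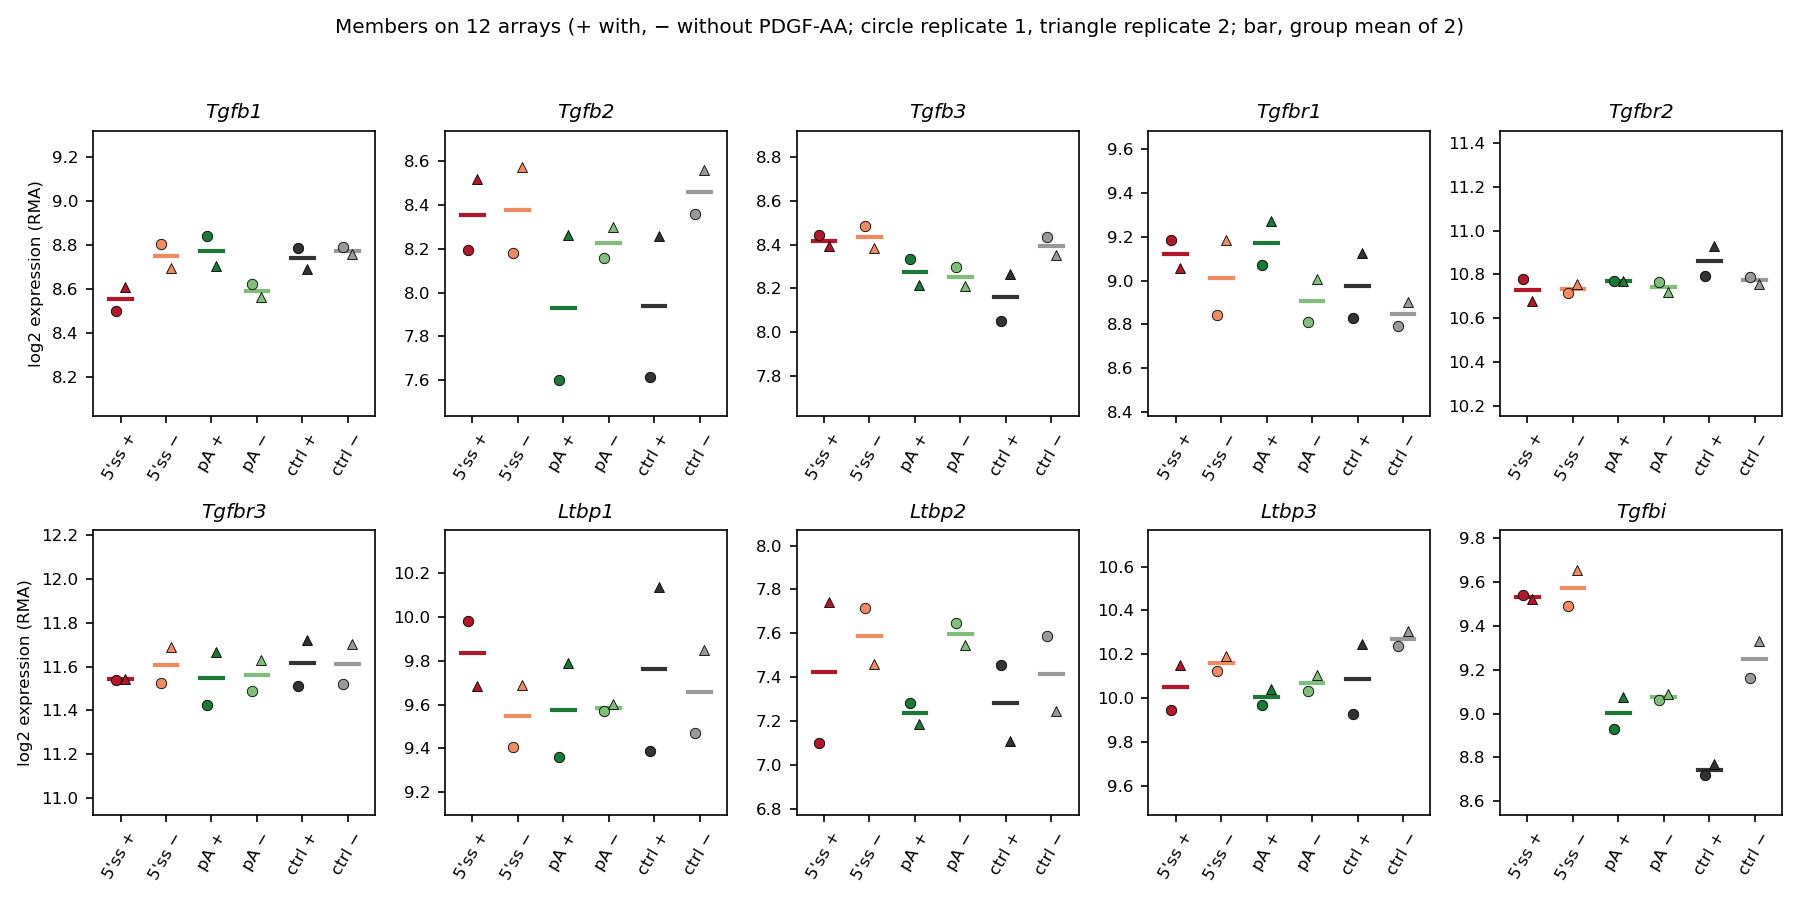
Log2 expression (RMA) of the 10 genes on 12 arrays, 1 panel per gene with the same axis length of 1.3 log2 units; circles are replicate 1, triangles replicate 2 and bars the means of 2 arrays. Tgfbi shows the widest span of group means, 0.83, and Tgfbr3 the narrowest, 0.07.

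The promoter sequences of Tgfbi, Tgfb2 and Tgfb1 are given because Tgfbi and Tgfb2 had the widest spans of group means and Tgfb1 ran apart from both. RefSeq promoter entries (GRCm38.p6) matched 8 of the 10 genes and none was matched for Tgfb3 and Tgfbr3. Each sequence holds the 250 bases before the annotated start, 5′ to 3′ on the gene's own strand. Capitals mark the SMAD half-site (CAGAC, or GTCTG on the other strand) and the GC box (GGGCGG, or CCGCCC on the other strand).
Tgfbi, chr13:56609336-56609585, plus strand: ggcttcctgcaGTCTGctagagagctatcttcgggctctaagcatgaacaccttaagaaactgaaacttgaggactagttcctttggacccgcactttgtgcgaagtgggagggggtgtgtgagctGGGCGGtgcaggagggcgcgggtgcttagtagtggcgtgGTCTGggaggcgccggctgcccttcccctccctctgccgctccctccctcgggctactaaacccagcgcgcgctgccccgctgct
Tgfb2, chr1:186705990-186706239, minus strand: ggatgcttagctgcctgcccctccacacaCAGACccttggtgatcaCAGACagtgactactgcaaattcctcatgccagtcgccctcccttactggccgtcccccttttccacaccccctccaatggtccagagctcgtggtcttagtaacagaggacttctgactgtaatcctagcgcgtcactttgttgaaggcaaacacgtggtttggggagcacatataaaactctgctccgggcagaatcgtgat
Tgfb1, chr7:25686752-25687001, plus strand: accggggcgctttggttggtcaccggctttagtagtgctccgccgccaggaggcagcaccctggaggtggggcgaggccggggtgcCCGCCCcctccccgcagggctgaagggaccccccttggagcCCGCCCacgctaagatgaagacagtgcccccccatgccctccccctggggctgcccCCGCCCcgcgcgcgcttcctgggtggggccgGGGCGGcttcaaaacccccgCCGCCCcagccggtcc

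The Tgfbi window held 2 SMAD half-sites, starting 239 and 85 bases before the start, and 1 GC box at 124 bases. The Tgfb2 window held 2 half-sites, at 221 and 204 bases, and 0 GC boxes. The Tgfb1 window held 0 half-sites and 5 GC boxes, between 164 and 16 bases before the start. Half-sites also lay in the windows of Tgfbr2 and Ltbp3, with 1 each, and in windows of Tgfbr1, Ltbp1 and Ltbp2. The half-site and the GC box are common. Of 32851 promoter windows of 250 bases, 42.2% held at least 1 half-site and 32.7% at least 1 GC box. The cyclic AMP response element, also searched, was held by 1.55% of windows and among the matched genes only by Ltbp1, at 73 bases. A match describes letters in the window and not a bound site, and nothing on these arrays measured binding.

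Pdgfra, the gene both targeting AMOs address, was between 12.84 and 12.92 on the 4 arrays with the 5'ss AMO, against 12.75 to 12.78 on the 4 with the control AMO. The arrays did not overlap (1.26% of all clusters were higher without overlap). The difference was 0.13 (SE 0.062), with an adjusted p of 0.995 in limma. With the pA AMO the 4 arrays lay between 12.72 and 12.81, overlapping those with the control AMO. They lay below all those with the 5'ss AMO (1.65% of all clusters were lower without overlap). A single transcript cluster stands for Pdgfra and does not resolve full-length from intronically polyadenylated transcripts. Whether either AMO acted on its site is thus not shown by this value. Of 12 FAP and fibroblast markers 11 were measured, and Ly6a was not. All 11 were bright, with gene means of 8.70 to 13.35, and their mean per array stayed between 11.59 and 11.74. The mark that separates the dimmest 40 percent of named clusters was 6.10. Of the markers of other cells, 4 of 6 endothelial and 4 of 6 macrophage genes lay below it. Myogenic genes were brighter: 1 of 10 lay below the mark, and their gene means ran from 4.74 to 10.08. As a list they averaged 6.68 to 7.67 per array.

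Groups were compared with limma across all 21789 clusters, and an adjusted p under 0.05 counted as passing. In each of the 16 comparisons 0 clusters passed (0%), and hence 0 of the 10 members, while 325 to 1308 clusters (1.49% to 6%) had an unadjusted p under 0.05. The numbers 1 and 2 name the replicates of each group, and same-numbered arrays deviated together, so a model that also takes up the number as a block is quoted where it changes a call. With that block, Tgfbi was the only member that passed, in 3 of the 16 comparisons. In those without a passing member the block called at most 21 clusters, for PDGF-AA averaged over AMOs (0.0964%), and 1 (0.00459%) for the 5'ss against the control AMO without PDGF-AA and for the pA against the 5'ss AMO without PDGF-AA. For the pA against the 5'ss AMO with PDGF-AA it called 3 (0.0138%). P-values rest on the spread between the 2 arrays of each group, taken over all groups. limma also draws the spread of each cluster towards that of all 21789 clusters, so the p-values rest on that too. With the block, the spread is what remains after the shared difference between numbers 1 and 2 is removed, drawn in the same way. No label says whether arrays of the same number came from the same pool.

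Groups of 2 arrays often separate without overlap, so counts of members are set beside the share of all clusters. For PDGF-AA under the control AMO, Tgfb2, Tgfb3 and Tgfbi were lower without overlap (13.6% of all clusters were) and Tgfbr2 was higher (17.5%). Under the pA AMO, Tgfb1, Tgfbr1 and Tgfbr2 were higher with PDGF-AA (11.4%) and Ltbp2 was lower (12.3%). Tgfbr2 separated only narrowly there, with nearest arrays at 10.7685 and 10.7667 and a change of 0.03. Under the 5'ss AMO only Tgfb1 separated, and it was lower with PDGF-AA (10.5%, while 9.13% of clusters were higher). Averaged over AMOs, 0 members separated (0.28% of clusters did, in either direction).

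For the pA against the control AMO without PDGF-AA, 5 of the 10 members were lower without overlap, Tgfb1, Tgfb2, Tgfb3, Ltbp3 and Tgfbi, against 12.3% of all clusters, and 0 were higher (10.5%). Their differences were small, from -0.14 to -0.23, and each had an adjusted p of 1 in limma. Myogenic markers lay the other way in this comparison, with 9 of 10 above 0 and a median of 0.40, against 0.00 over all clusters. Their mean per array without PDGF-AA was 7.67 and 7.13 with the pA AMO, against 7.42 and 6.68 with the control AMO. With PDGF-AA present, Tgfbi was higher (12.3%) and Tgfbr2 lower (19.2%), and averaged over PDGF-AA 0 members separated (2.65%). For the 5'ss against the control AMO, Tgfbi was higher and Tgfbr2 and Ltbp3 lower without PDGF-AA (12.6% and 11.1%). Tgfbr2 again separated narrowly, with nearest arrays at 10.7542 and 10.7569 and a difference of -0.04. With PDGF-AA, Tgfb3 and Tgfbi were higher and Tgfb1 and Tgfbr2 lower (12.5% and 17.7%). For the pA against the 5'ss AMO, Tgfb1, Tgfb3, Ltbp3 and Tgfbi were lower without PDGF-AA (10.9%), where 10 of 10 myogenic markers were above 0 with a median of 0.45. The part of the myogenic markers in these differences was not tested. With PDGF-AA, Tgfb3 and Tgfbi were lower and Tgfb1 higher (14.9% each way).

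Tgfb1 encodes the most widely studied TGF-beta ligand. Under the pA AMO it was 8.84 and 8.71 with PDGF-AA, against 8.62 and 8.56 without. Under the 5'ss AMO it was 8.50 and 8.61 with PDGF-AA, against 8.81 and 8.70 without. The arrays with PDGF-AA were thus the higher ones under the pA AMO and the lower ones under the 5'ss AMO, with no overlap in either. The changes were 0.18 and -0.20 (SE 0.098 each), and neither passed. Under the control AMO, Tgfb1 was 8.79 and 8.69 with PDGF-AA, against 8.79 and 8.76 without, a change of -0.03. The difference between the PDGF-AA effects under the pA AMO and the 5'ss AMO was 0.38 (SE 0.14), 0.52 in replicate 1 and 0.23 in replicate 2, with an adjusted p of 1 in limma. Myogenic markers ran the other way in the same contrast, with 9 of 10 below 0 and a median of -0.64. Their mean per array was 7.14 and 6.86 under the pA AMO with PDGF-AA, against 7.67 and 7.13 without, and 7.31 and 6.91 under the 5'ss AMO with PDGF-AA, against 6.87 and 7.06 without. Within replicate 1 their median in this contrast was -0.96 and within replicate 2 it was -0.11. Their part in the Tgfb1 difference was not tested.

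Tgfb2 encodes the ligand that depends most on betaglycan for receptor binding. Under the control AMO it was 7.62 and 8.26 with PDGF-AA, against 8.36 and 8.56 without. With the pA AMO it was 7.60 and 8.26 with PDGF-AA, against 8.16 and 8.30 without. Under the 5'ss AMO it was 8.19 and 8.52 with PDGF-AA, against 8.18 and 8.58 without. Replicate 1 with PDGF-AA under the pA and control AMOs gave the 2 lowest of the 12 arrays. The change with PDGF-AA was -0.52 (SE 0.25) under the control AMO, -0.30 under the pA AMO and -0.02 under the 5'ss AMO, and none passed. Within replicate 1 the change was -0.74 under the control AMO and -0.56 under the pA AMO, and within replicate 2 it was -0.30 and -0.04. The control AMO change was -0.84 without replicate 2 of the control AMO group with PDGF-AA and -0.20 without its replicate 1. With the replicate block the adjusted p of this change was 0.193 in limma.

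Tgfb3 encodes the ligand best known for its part in palate fusion. It was 8.05 and 8.27 with PDGF-AA under the control AMO, against 8.43 and 8.35 without. The arrays did not overlap, and the change was -0.23 (SE 0.11, adjusted p 0.984 in limma). Under the other AMOs its change with PDGF-AA was 0.02 (pA) and -0.02 (5'ss). With PDGF-AA present, Tgfb3 was 8.44 and 8.39 under the 5'ss AMO, against 8.05 and 8.27 under the control AMO, a difference of 0.26 that did not pass (adjusted p 0.823). Averaged over PDGF-AA, Tgfb3 differed by -0.16 (SE 0.074) between the pA and 5'ss AMOs, and all 4 pA arrays (8.21 to 8.33) lay below all 4 5'ss arrays (8.39 to 8.48).

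**Figure D2:**
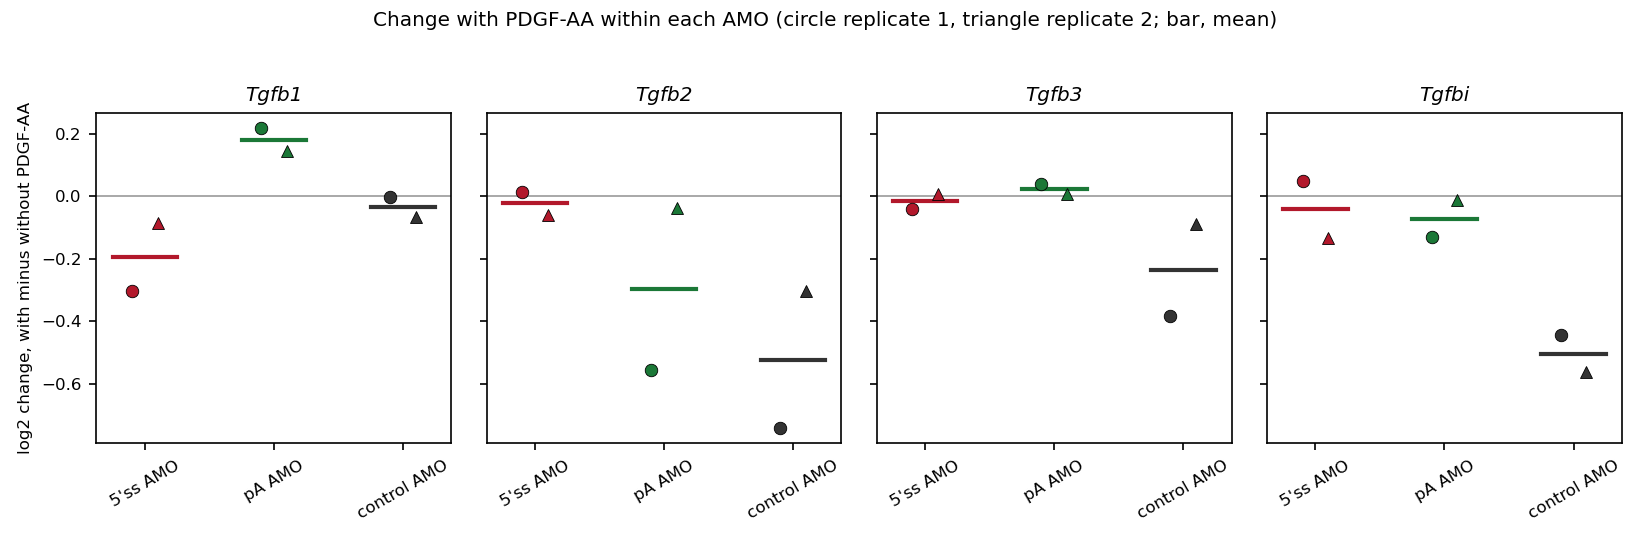
Log2 change with PDGF-AA (with minus without) of Tgfb1, Tgfb2, Tgfb3 and Tgfbi within the 5'ss, pA and control AMOs; circles are replicate 1, triangles replicate 2 and bars their mean. The mean change of Tgfb1 was 0.18 under the pA AMO and -0.20 under the 5'ss AMO, while Tgfb2 (-0.52), Tgfb3 (-0.23) and Tgfbi (-0.50) had their lowest mean change under the control AMO.

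Tgfbr1 encodes the type I receptor kinase. Under the pA AMO it was 9.07 and 9.27 with PDGF-AA, against 8.81 and 9.01 without, a change of 0.26 in replicate 1 and 0.27 in replicate 2. Under the 5'ss AMO the change was 0.34 in replicate 1 and -0.12 in replicate 2, and under the control AMO 0.03 and 0.22. Averaged over AMOs the change was 0.17, with a 95% interval from -0.02 to 0.36, and it did not pass.

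Tgfbr2 encodes the type II receptor, which binds the ligand first. Its 12 arrays lay between 10.68 and 10.93, and its differences in the 16 comparisons ran from -0.13 to 0.09. Tgfbr3 encodes betaglycan, the accessory receptor that presents ligand to the type II receptor. Its arrays lay between 11.43 and 11.72 and its differences ran from -0.07 to 0.05. Replicate 2 of Tgfbr3 was the higher array in 6 of 6 groups, by 0.01 to 0.24, while the group means spanned 0.07. For 5'ss against control AMO averaged over PDGF-AA, the intervals ran from -0.23 to 0.06 for Tgfbr2 and from -0.24 to 0.16 for Tgfbr3. They come from the fit without the replicate block, which counts the shared replicate difference as spread. With the block the SE was 0.0552 instead of 0.0655 for Tgfbr2 and 0.0554 instead of 0.0893 for Tgfbr3. Tgfbr2 itself had a replicate difference of only -0.001 on average. Its SE also depends on the spread over all clusters, towards which limma draws the spread of each gene. The intervals are thus not the limit of what 2 arrays a group can show.

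Ltbp1 and Ltbp3 encode proteins that bind the latent TGF-beta complex in the matrix. Ltbp1 was 9.98 and 9.68 under the 5'ss AMO with PDGF-AA, against 9.41 and 9.69 without, a change of 0.58 in replicate 1 and -0.01 in replicate 2. Under the control AMO it was 9.39 and 10.13 with PDGF-AA, against 9.47 and 9.85 without. The arrays of Ltbp1 within a group differed by up to 0.75, more than any of its differences between group means. Ltbp3 was 10.03 and 10.10 under the pA AMO without PDGF-AA, against 10.24 and 10.31 under the control AMO without it. These arrays did not overlap, and the difference was -0.20 (SE 0.12), -0.21 in replicate 1 and -0.20 in replicate 2, and did not pass.

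Ltbp2 encodes the family member that does not bind latent TGF-beta and instead associates with elastic microfibrils. Under the pA AMO it was 7.28 and 7.19 with PDGF-AA, against 7.65 and 7.55 without. The arrays did not overlap, and the change was -0.36 (SE 0.21), -0.37 in replicate 1 and -0.36 in replicate 2, and did not pass. Under the 5'ss AMO the change was -0.61 in replicate 1 and 0.28 in replicate 2, in opposite directions.

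**Figure D3:**
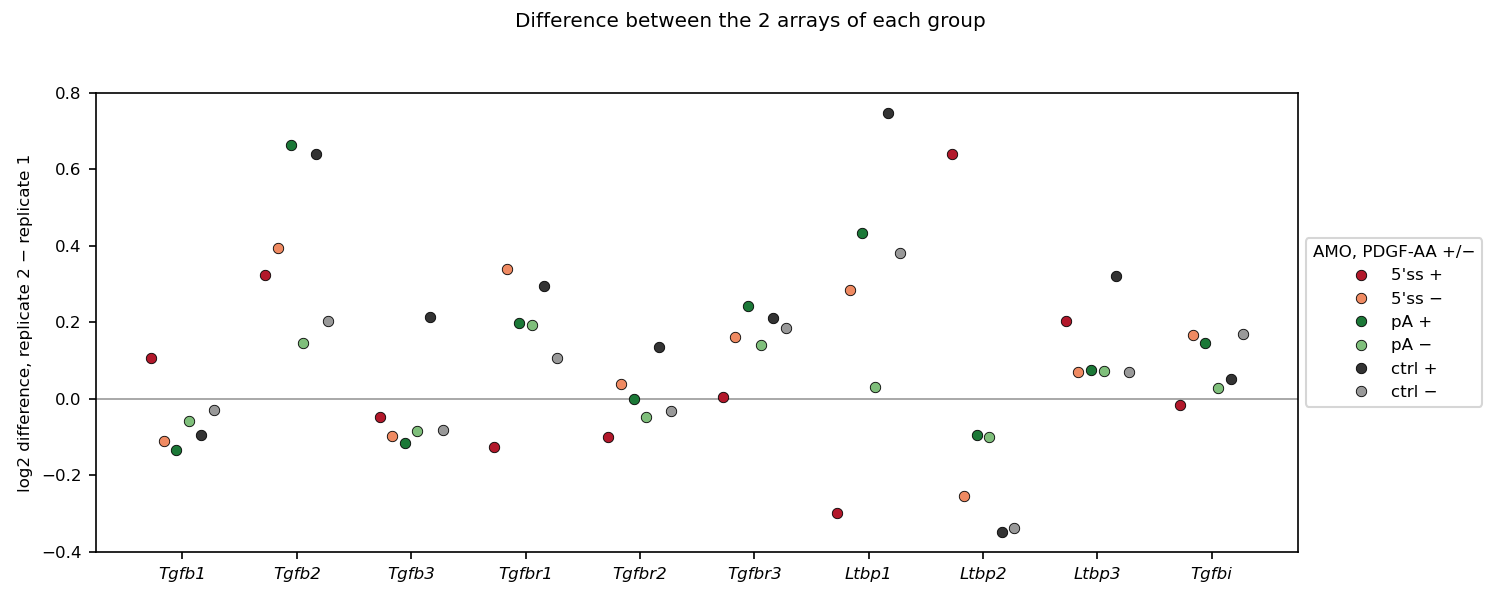
Log2 difference between the 2 arrays of each group, replicate 2 minus replicate 1, for the 10 genes, with 1 point per group. All 6 points lie above 0 for Tgfb2, Tgfbr3 and Ltbp3, and Ltbp1 reaches 0.75 with PDGF-AA under the control AMO.

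For 9 of the 10 genes the replicate difference had the same sign in at least 5 of the 6 groups. Replicate 2 was the higher array in 6 of 6 groups for Tgfb2 (by 0.40 on average), Tgfbr3 (0.16) and Ltbp3 (0.14). It was the higher array in 5 of 6 groups for Tgfbr1, Ltbp1 and Tgfbi, and the lower in 5 of 6 for Tgfb1, Tgfb3 and Ltbp2. The exception was Tgfbr2, with replicate 2 higher in 2 groups and lower in 3. Same-numbered arrays also deviated together over all clusters, in 15 of 15 pairs of groups. The share of all clusters with such signs was not counted, so this is not shown to be particular to these genes. No label says what arrays of the same number share.

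Tgfbi encodes a secreted protein that binds collagen and integrins in the matrix and that was first found as a gene induced by TGF-beta. Under the 5'ss AMO it was 9.54 and 9.52 with PDGF-AA and 9.49 and 9.66 without. With the pA AMO it was 8.93 and 9.08 with PDGF-AA and 9.06 and 9.09 without. Under the control AMO it was 8.72 and 8.77 with PDGF-AA and 9.16 and 9.33 without. The order of the group means, from high to low, was 5'ss without PDGF-AA (9.57), 5'ss with PDGF-AA (9.53), control without (9.25), pA without (9.07), pA with (9.00) and control with PDGF-AA (8.74). The pair of 5'ss groups overlapped each other, as did the pair of pA groups, and the other neighbours in this order did not overlap.

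Averaged over PDGF-AA, Tgfbi was 9.55 with the 5'ss AMO and 9.00 with the control AMO (means of 4 arrays each), a difference of 0.56 (SE 0.074) or 1.47-fold. All 4 5'ss arrays (9.49 to 9.66) lay above all 4 control arrays (8.72 to 9.33), and the difference was 0.57 in replicate 1 and 0.54 in replicate 2. Among all 21789 clusters 1.26% were higher and 1.71% lower without overlap in this comparison, and Tgfbi was the only member of the 10. By p it ranked 4 among all clusters, with an adjusted p of 0.0988 in limma, which did not pass, and of 0.028 with the replicate block, which did. With the block 3 clusters passed in all, 0.0138% of those tested. When 1 of the 12 arrays was left out of the block fit, Tgfbi passed in 1 of 12 such fits, with adjusted p from 0.0266 to 0.18.

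With PDGF-AA present the difference between the 5'ss and control AMOs was 0.79 (SE 0.10), or 1.73-fold, at 0.82 in replicate 1 and 0.75 in replicate 2. The adjusted p in limma was 0.132, and 0.0196 with the replicate block, where 22 clusters passed (0.101%). With 1 array left out of the block fit it passed in 7 of 12 (0.0248 to 0.166). Without PDGF-AA it was 0.33 (SE 0.10), or 1.25-fold, and did not pass with or without the block. The 2 differences were set against each other as the difference between PDGF-AA effects, given after these comparisons.

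Between the pA and 5'ss AMOs, Tgfbi was lower under the pA AMO, at 9.04 against 9.55 averaged over PDGF-AA, a difference of -0.51 (SE 0.074). It was -0.52 in replicate 1 and -0.51 in replicate 2, and the arrays did not overlap. Of all clusters 1.65% were lower and 0.996% higher without overlap in this comparison, and 2 members were lower, Tgfbi and Tgfb3. The adjusted p in limma was 0.266, and 0.0347 with the block, where 6 clusters passed (0.0275%). With 1 array left out of the block fit it passed in 1 of 12 (0.0239 to 0.263). The comparisons with the 5'ss AMO on either side share the 4 arrays of that AMO. Between the pA and control AMOs, Tgfbi differed by 0.04 (SE 0.074) averaged over PDGF-AA, by 0.26 with PDGF-AA and by -0.17 without.

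**Figure D4:**
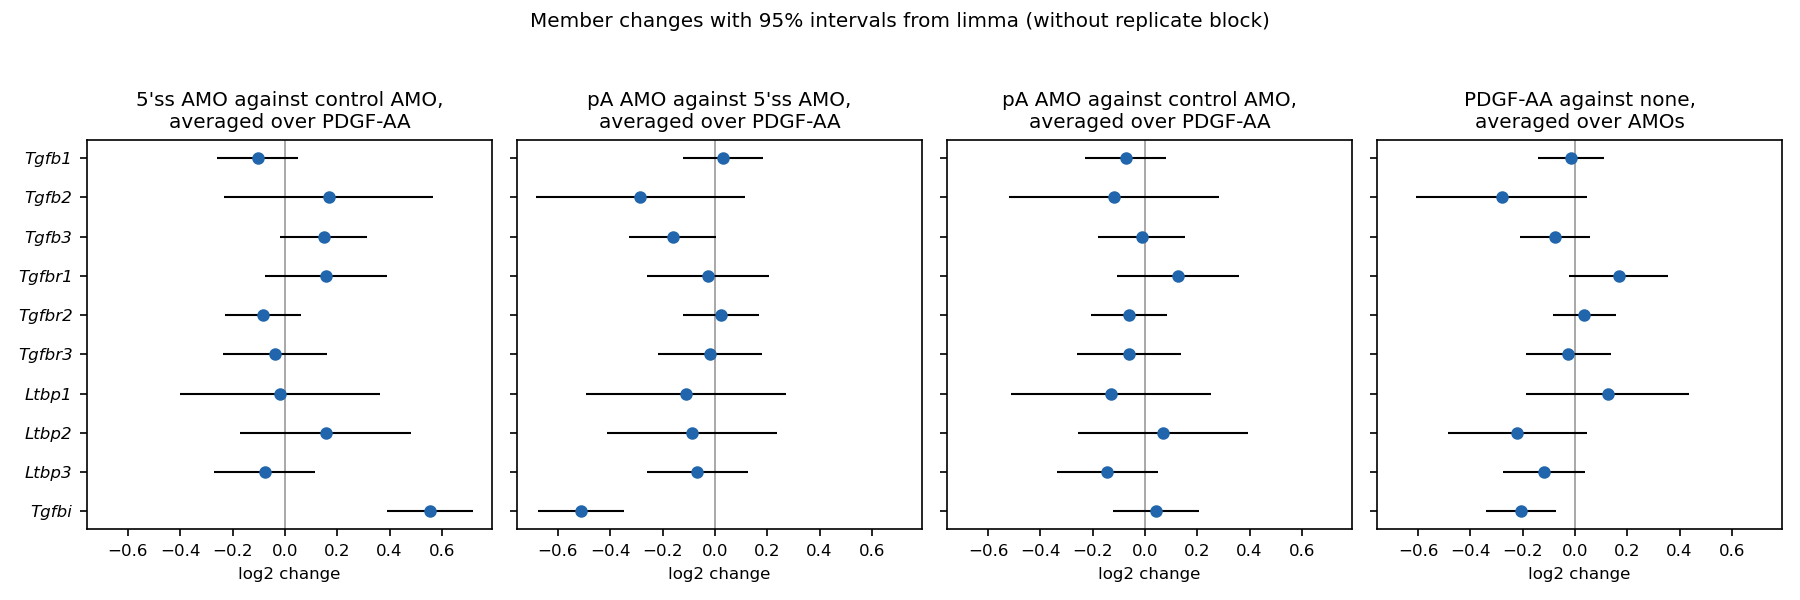
Log2 changes of the 10 genes with 95% intervals from limma without the replicate block, for 4 comparisons averaged over the other factor. The interval of Tgfbi runs from 0.39 to 0.72 for the 5'ss against the control AMO and from -0.68 to -0.35 for the pA against the 5'ss AMO.

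The difference of Tgfbi with PDGF-AA was -0.50 (SE 0.10) under the control AMO, a fold of 0.706, and the arrays did not overlap. The change was -0.44 in replicate 1 and -0.56 in replicate 2, rank 22 by p among all clusters. The adjusted p in limma was 0.568, and 0.0896 with the replicate block, so it did not pass. With the pA AMO the change was -0.07 and under the 5'ss AMO -0.04. The effect of PDGF-AA under the pA AMO minus that under the control AMO was 0.43 (SE 0.15), and under the 5'ss AMO minus the control AMO 0.46 (SE 0.15). Each had an adjusted p of 1 in limma, and of 0.459 and 0.467 with the block. Both subtract the same control AMO change, so the 2 values are not separate evidence.

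Some markers of other cells ran the same way as Tgfbi and others did not. For the 5'ss against the control AMO averaged over PDGF-AA, 4 of 6 smooth muscle and pericyte markers were above 0 with a list median of 0.07, led by the potassium channel genes Abcc9 (0.36) and Kcnj8 (0.35). The lowest of that list was the pericyte proteoglycan gene Cspg4 at -0.15, which was at -0.39 without PDGF-AA (p 0.00603 in limma before adjustment). The mean of this list per array ran from 6.75 to 6.85 with the 5'ss AMO and from 6.60 to 6.82 with the control AMO. Rgs5, a defining pericyte marker, was dim on all arrays, at 4.74 to 5.08. Of 6 macrophage and leukocyte markers 2 were above 0, with Lyz2, the lysozyme gene, at 0.56 and Itgam, an integrin subunit gene, lowest at -0.12. The mean of that list ran from 5.66 to 5.75 with the 5'ss AMO and from 5.51 to 5.74 with the control AMO, and the defining markers Adgre1 (3.89 to 4.51) and Ptprc (4.75 to 5.35) were dim on all arrays. For PDGF-AA under the control AMO the smooth muscle and pericyte list averaged 6.60 and 6.62 per array with PDGF-AA, against 6.76 and 6.82 without, with Abcc9 at -0.61, and Lyz2 was at -0.84. The part of these genes in the Tgfbi differences was not tested.

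Set side by side, some pairs of members varied together and others did not. Over the 12 arrays, each set against the mean of its replicate number, Tgfb3 and Tgfbi had a Pearson r of 0.81, Tgfb2 and Tgfb3 of 0.76, and Tgfb2 and Tgfbi of 0.74. Without that centring, the same pairs had 0.76, 0.47 and 0.65 in the same order. With it, the lowest value was -0.67, between Ltbp1 and Ltbp2, and Tgfbr2 and Tgfbi had -0.60. Other pairs were near 0, such as Tgfbr3 and Tgfbi at -0.03. These arrays share groups and a common normalization, so the values describe likeness and carry no test. Among 12524 named genes, those most like Tgfbi by the same measure were Rpl7a (0.96), Rpl36a (0.95) and Hacd2 (0.95). For Tgfb2 they were Chst15 (0.97), Rhou (0.96) and Steap3 (0.96), and for Ltbp2 they were Slc1a3 (0.94), Sema3d (0.93) and Acta2 (0.92). Without that centring, Rpl7a, Rpl36a and Hacd2 had 0.82, 0.77 and 0.90, and the genes named for Tgfb2 and Ltbp2 had 0.87 to 0.98. Likeness in r is not likeness in size. For the 5'ss against the control AMO averaged over PDGF-AA, Rpl7a differed by 0.12, Rpl36a by 0.11 and Hacd2 by 0.41, against 0.56 for Tgfbi.

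Other genes of the pathway were followed as 4 lists, in which 0 genes passed in any comparison, with or without the replicate block. Of the latency and activation partners 17 of 18 were measured, of the other receptors 13 of 13, of the Smads and their regulators 20 of 20, and of the TGF-beta induced genes 19 of 22. For the 5'ss against the control AMO averaged over PDGF-AA, 12 of the 19 induced genes were above 0 and 7 below, with a median of 0.02 against -0.01 over all clusters. The ends of that list were Acta2, the smooth muscle actin gene, at 0.55 and Postn, the periostin gene, at -0.12, and the smallest p was that of the cell cycle inhibitor gene Cdkn2b (0.26, p 0.019 in limma before adjustment). Tgfbi, at 0.56, thus lay at the upper end reached by Acta2, whose standard error was 0.33 against 0.074 for Tgfbi.

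In the same comparison 7 of 17 latency partners were above 0, from Itgb3, an integrin subunit gene, at -0.23 to the fibrillin gene Fbn2 at 0.22. Of the other receptors 8 of 13 were above 0, and Eng, the endoglin gene, had the smallest p (-0.23, p 0.00793 before adjustment). Its levels were 11.02 to 11.21 with the 5'ss AMO, against 11.30 to 11.39 with the control AMO, with no overlap (1.71% of all clusters were lower). Of the Smads and regulators 11 of 20 were above 0, from Tgif2, a corepressor gene, at -0.16 to Skil, a Smad corepressor gene, at 0.18. The 10 members had a median of 0.06 in this comparison, with 5 above 0 and 5 below.

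**Figure D5:**
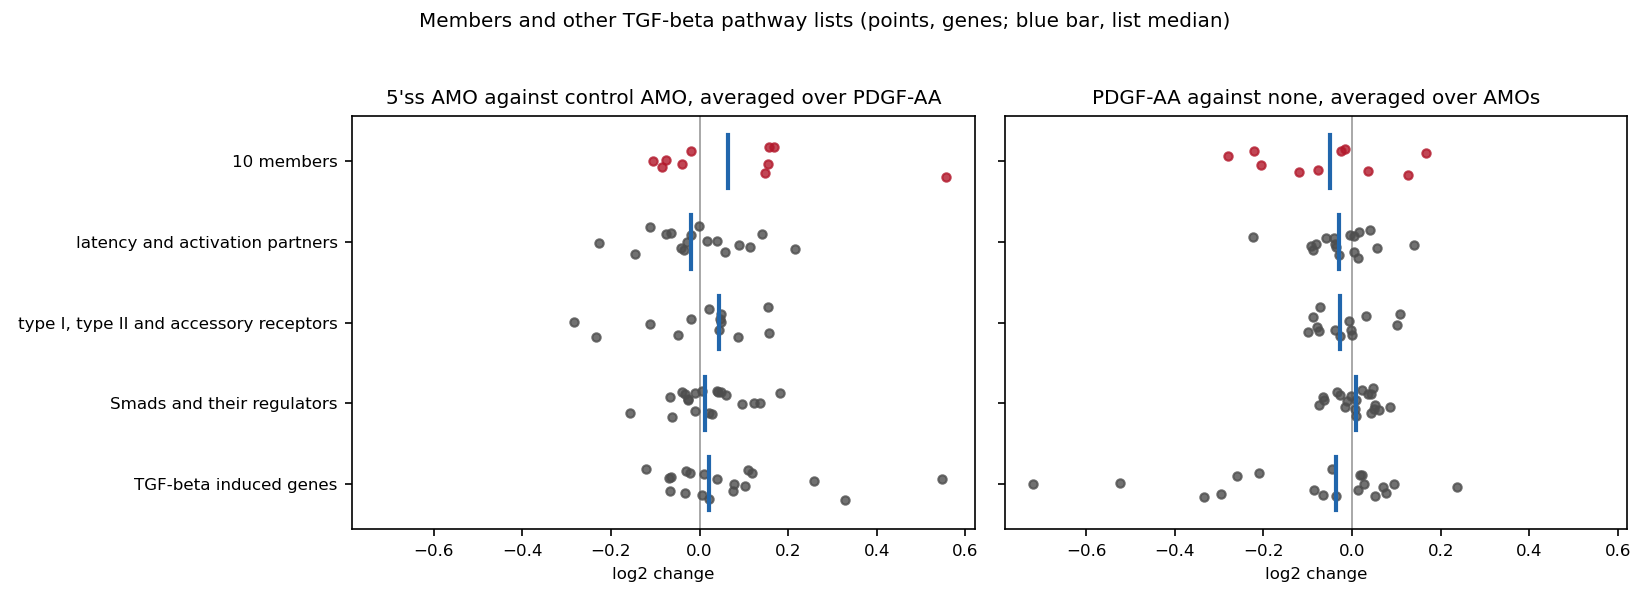
Log2 changes of the 10 members (red) and of the 4 other pathway lists (grey), with 1 point per gene and list medians as blue bars, for the 5'ss against the control AMO (left) and for PDGF-AA against none (right), each averaged over the other factor. Tgfbi (0.56) and Acta2 (0.55) are the rightmost points on the left, and Acta2 (-0.72) the leftmost on the right.

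For PDGF-AA averaged over AMOs, 9 of 19 induced genes were above 0 and 10 below, with a median of -0.04. They ran from Acta2 at -0.72 to the transcription factor gene Bhlhe40 at 0.24. Itga11, a collagen-binding integrin gene, had the smallest p, at -0.30 (SE 0.057, adjusted p 0.342 in limma and 0.0783 with the block). Itga11 was 9.94 to 10.23 with PDGF-AA, against 10.11 to 10.47 without. Of the members 3 were above 0 and 7 below, with a median of -0.05, and their smallest adjusted p was 0.825, that of Tgfbi at -0.21.

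The PDGF-AA effects under the 3 AMOs were also set against each other for the induced genes, and 0 genes passed. For the pA AMO minus the control AMO, 17 of 19 were above 0 with a median of 0.11, 18 within replicate 1 and 13 within replicate 2. In that contrast 10 of 10 myogenic markers were below 0 with a median of -0.53, and their part was not tested. The 5'ss AMO minus the control AMO had 6 above 0 with a median of -0.14. For the pA AMO minus the 5'ss AMO 15 were above 0, with a median of 0.24 against 0.00 over all clusters, and 9 of 10 myogenic markers were below 0.

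Replicate 1 under the 5'ss AMO with PDGF-AA was the lowest of the 12 arrays for 6 of these 19 genes, and the next such array, replicate 2 under the control AMO with PDGF-AA, for 4. Within replicate 1 the median for the pA AMO minus the 5'ss AMO was 0.42 with 18 above 0, and within replicate 2 it was -0.06 with 9 above 0. Without that array the median was 0.11 with 13 above 0. The median for the 5'ss AMO minus the control AMO was -0.29 within replicate 1 and 0.10 within replicate 2, and 0.01 with 10 above 0 without that array. Postn was 8.70 and 10.34 under the 5'ss AMO with PDGF-AA, and its difference between the pA and 5'ss AMO effects was 1.24 (SE 0.56), but 2.40 within replicate 1, 0.08 within replicate 2 and 0.42 without that array. Plod2, a collagen lysyl hydroxylase gene, had the smallest p in that contrast (0.54, p 0.00354 in limma before adjustment), at 0.71 in replicate 1 and 0.36 in replicate 2. These values within replicates were computed after the data were seen. For Tgfbi the difference between the PDGF-AA effects under the pA and 5'ss AMOs was -0.03 (SE 0.15).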

How the data were processed

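The platform was the Affymetrix Mouse Gene 1.0 ST array, with 12 arrays in 6 groups of 2. The authors deposited log2 expression values, for which the submitters' processing notes name RMA and Affymetrix Expression Console, with versions not given in the sources used here. RMA removes background, brings all arrays to a common distribution and reduces the probes of each cluster to a single value, so isoforms are not resolved. Array medians ran from 6.04 to 6.23, and scanner files were not used here. Precision is limited by the number of arrays.

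The platform annotation gives 1 symbol to 21789 of 35556 clusters (19938 genes), several to 1621, and does not list 12146. RefSeq (GRCm38.p6) matched 21698 of the 21789 by identifier and changed 0 symbols. A gene in a list with several clusters entered by its brightest. The 10 members and the lists were chosen with earlier results of these data known. Members and Pdgfra are named throughout, and of each list the genes with the highest change, the lowest change and the smallest p. For the 3 members with the widest spans the 3 most alike genes are named. Markers named beside Tgfbi outside that rule (Rgs5, Adgre1 and Ptprc) were chosen after their values were seen.

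limma 3.58.1 in R 4.3.3 was fitted as a means model of the 6 groups to all 12 arrays (6 residual degrees of freedom, 5 with the replicate block), with p adjusted by Benjamini-Hochberg over the 21789 clusters and a threshold of 0.05. The spread of each cluster was moderated towards that of all clusters by limma's empirical Bayes step, without trend or robust options. Standard errors and intervals use the moderated spread. The fit was tested on simulated data. There were 16 comparisons: PDGF-AA averaged and within each AMO, each AMO pair averaged, with and without PDGF-AA, and the 3 contrasts of PDGF-AA effects. Intervals are at 95% confidence and come from the fit without the replicate block. The labels do not say what replicate numbers share. Deviations of same-numbered arrays correlated in 15 of 15 pairs of groups, at 0.20 to 0.61 against a criterion of 0.1, and for 12 of 12 arrays the closest array had the same number. By this hint from the data the numbers pair the samples. Alternatives were the block, trend and robust moderation, median centring, repeated quantile normalization, array weights, dim clusters left out, all clusters tested, only the groups compared in the fit, and each array left out in turn. Promoter windows were searched on both strands for the SMAD half-site, the GC box and the cyclic AMP response element.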

Additional observations from a re-analysis of the deposited data

How the results depend on the processing

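Without a replicate block 0 clusters passed in any of the 16 comparisons. With the replicate block, which pairs arrays of the same number, 21 passed for PDGF-AA averaged over AMOs. For the 5'ss against the control AMO it was 3 averaged, 1 without and 22 with PDGF-AA, and for the pA against the 5'ss AMO 6, 1 and 3 in the same order. The block changed no other call. Trend and robust moderation gave 39 for PDGF-AA averaged over AMOs, 13 under the control AMO, 7 averaged and 6 with PDGF-AA for the 5'ss against the control AMO, and 2 for the pA against the 5'ss AMO averaged. For the 5'ss against the control AMO with PDGF-AA, median centring gave 1 and repeated quantile normalization 5. Leaving out each array in turn gave 0 to 1 for the 5'ss against the control AMO, averaged and with PDGF-AA alike, where leaving out either pA AMO array without PDGF-AA gave 1, and 0 in the other 14 comparisons. The cause of these shifts was not tested.

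The adjusted p of Tgfbi for the 5'ss against the control AMO averaged ran from 0.0171 with trend and robust moderation to 0.725 without replicate 2 of the 5'ss AMO group with PDGF-AA. With PDGF-AA it ran from 0.0196 with the block to 0.803 without that same array, and for the pA against the 5'ss AMO averaged from 0.0347 with the block to 1. The block together with leaving out each array was added after the data were seen. For the 5'ss against the control AMO averaged, the adjusted p of Tgfbi stayed under 0.05 in 1 of 12 such fits (0.0266 to 0.18, highest without replicate 1 of the control AMO group with PDGF-AA). With PDGF-AA it did in 7 of 12 (0.0248 to 0.166), and for the pA against the 5'ss AMO averaged in 1 of 12 (0.0239 to 0.263). The log2 change itself ran from 0.51 to 0.60, from 0.75 to 0.83 and from -0.56 to -0.47 in those comparisons over all settings. Of 1120 log2 changes of members under settings that kept all arrays, 1116 moved by less than the replicate spread. With an array left out, 1820 of 1920 did. Both counts include values that could not move. The block, trend and robust moderation, dim clusters left out and all clusters tested leave every log2 change as it is. So does leaving out an array that a comparison does not use. The counts are therefore not a measure of stability. Array count limits these data: with 2 arrays a group, changes near the replicate spread cannot be resolved.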
